A study of Mus musculus with 9 samples.

Results

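The Schlafen family is a set of related genes that lie side by side on mouse chromosome 11 and are known to be inducible by interferon (IFN). Its 7 members Slfn1, Slfn2, Slfn3, Slfn4, Slfn5, Slfn8 and Slfn9 were matched by gene name on the arrays. They make up 7 of the 37325 genes named on the arrays and 13 of the 56605 probes. Slfn5 was read by 5 probes, Slfn8 and Slfn9 by 2 each, and the other 4 members by 1 probe each. All 13 probes were well above background on all 9 arrays, so that all 7 members passed the filter on dim probes.

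Schlafen genes take their name from the German word for sleep and were described early as brakes on the growth of thymocytes. In the mouse they form a short group (Slfn1 and Slfn2), an intermediate group (Slfn3 and Slfn4) and a long group (Slfn5, Slfn8 and Slfn9), of which the long proteins carry a helicase-like region. Type I IFN is known to raise several members in lymphoid and myeloid cells, and mutations of the human form of Slfn14, a relative outside the 7 members, are known from inherited thrombocytopenia.

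Gene expression was measured in mature megakaryocytes (mMKs) from the bone marrow of mice. Their strain was taken as wild-type C57BL/6 from the methods on animals, since the methods on the arrays do not name it. The Ctrl group was sham-irradiated, and the other groups were taken at 1 day (1 dpi) and 3 days (3 dpi) after total body exposure to 5 Gy of γ-rays. Each group had 3 arrays, 9 in all. The mMKs were enriched by selection for CD41 and then CD42d, surface proteins of the lineage. The methods count replicates as mice, while the labels do not say that each array is a separate mouse, and p-values measure the spread between arrays. Age is not given for these mice in the sources used here, and the methods on animals name male sex for other mouse lines only. Levels are on a log2 scale on which the 75th percentile of every array was set to 0, and the levels of different probes cannot be set against each other.

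The arrays differed in brightness before any scaling. Of the spots that are not controls, 69.1%, 79.5% and 80.8% were well above background on the Ctrl arrays, 72.3%, 74.8% and 75.6% at 1 dpi, and 81.8%, 81.6% and 81.8% at 3 dpi. On the log2 scale, the 75th percentile was 9.52, 10.12 and 10.15 in Ctrl, 8.85, 8.96 and 8.94 at 1 dpi, and 9.86, 10.04 and 10.02 at 3 dpi. By the 75th percentile the 1 dpi arrays were thus the dimmest, and their scaling adds most to their levels. The share of spots well above background was lowest on Ctrl replicate 1. Ctrl replicate 1 was the dimmest Ctrl array and lay alone on slide 1, while the other 8 arrays shared slide 2. A fixed block for slide therefore sets Ctrl replicate 1 aside, much as leaving it out does. With 3 arrays per group, the smallest p that an exact two-sided permutation can reach is 0.10. Both comparisons against Ctrl use the same 3 Ctrl arrays and are not independent of each other.

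A gene was called when limma gave an adjusted p (Benjamini-Hochberg over all 29411 genes tested) under 0.05 and the change was at least 2-fold. At 1 dpi, 2 of the 7 members were called higher than in Ctrl, namely Slfn5 and Slfn8, and 0 were called lower. Over all genes the calls were 11.7% higher and 3.08% lower (3453 and 907 genes). That balance turned after scaling to the array median, with 1888 genes higher and 2300 lower. At 3 dpi, 1 member (Slfn5) was called higher than in Ctrl and 0 lower, against 7.04% and 1.79% of all genes. From 1 to 3 dpi, 1 member (Slfn8) was called lower at 3 dpi than at 1 dpi and 0 higher, against 4.48% lower and 4.17% higher among all genes. Fold size aside, the adjusted p was under 0.05 for 7, 5 and 4 members in these comparisons, and for 16275, 9393 and 13015 of the 29411 genes. Groups lay fully apart for 7, 6 and 4 of the members, and for 67.2%, 47.2% and 65.2% of all genes. These counts take Slfn9 from its probe 1, whose mean level exceeded that of its probe 2 only at 1 dpi. On probe 2 the limma adjusted p was 0.294 at 1 dpi and 0.393 from 1 to 3 dpi, and the Ctrl and 1 dpi arrays overlapped.

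All genes together moved with the scaling, which sets how far the members stand out. Their median log2 fold change was 0.23 at 1 dpi and 0.12 at 3 dpi, and -0.08 on the step from 1 to 3 dpi. The 7 members had medians of 0.90, 0.48 and -0.23, which are 0.67, 0.36 and -0.15 once the shift of all genes is taken off. That shift at 1 dpi was 0.00 after quantile normalization, -0.10 after scaling to the array median and 0.43 with the normexp background correction, and the members' median relative to it was 0.92, 0.67 and 0.39. From 1 to 3 dpi the members' relative median of -0.15 became 0.18 with normexp, which is a change of direction.

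Slfn5 belongs to the long group and is known as an IFN-inducible nuclear protein. Its brightest probe, probe 1 (chr11:82778192-82778251 of the build mm9, plus strand), starts at base 5828 of the transcript and stood for the gene. On this probe the level was 1.39, 1.38 and 1.38 in Ctrl, 2.79, 2.93 and 2.61 at 1 dpi, and 2.93, 2.89 and 2.85 at 3 dpi. All 6 arrays after IR lay above all 3 Ctrl arrays, and the 1 dpi and 3 dpi arrays overlapped. The mean level was 1.38 ± 0.01 (SD, n = 3) in Ctrl, 2.78 ± 0.16 at 1 dpi and 2.89 ± 0.04 at 3 dpi. Slfn5 rose 2.63-fold at 1 dpi (log2 fold change 1.39 ± 0.08 SE, limma adjusted p = 1.2e-05) and was 2.84-fold above Ctrl at 3 dpi (1.51 ± 0.08, adjusted p = 7.85e-06). From 1 to 3 dpi the difference of 0.11 did not pass the test (95% confidence interval -0.08 to 0.31, adjusted p = 0.309).

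The other probes of Slfn5 gave another time course. Probe 2 (base 3994) read 0.61, 0.48 and 0.51 in Ctrl, 2.81, 2.77 and 2.76 at 1 dpi, and 2.08, 1.77 and 1.80 at 3 dpi. Probe 4 (base 2543) read -4.55, -4.46 and -4.43 in Ctrl, -0.68, -1.10 and -0.99 at 1 dpi, and -2.40, -3.00 and -2.72 at 3 dpi. On both probes the 3 groups did not overlap at all, with Ctrl lowest, 3 dpi in between and 1 dpi highest. In the fit over all probes, probe 2 was 4.74-fold higher at 1 dpi (log2 fold change 2.24 ± 0.09 SE, limma adjusted p = 2.2e-06) and 2.54-fold higher at 3 dpi. Probe 4 was 11.8-fold higher at 1 dpi (3.56 ± 0.16, adjusted p = 3.48e-06) and 3.43-fold higher at 3 dpi. With normexp the differences of this dim probe were smaller, 2.51 at 1 dpi and 0.99, under 2-fold, at 3 dpi. From 1 to 3 dpi probe 4 fell by 1.78 (SE 0.16, limma adjusted p = 0.000156), past the 2-fold threshold, and the difference on probe 2 was -0.90 (SE 0.09, adjusted p = 0.000255).

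Probes 3 and 5 of Slfn5 lie next to each other (chr11:82765536-82765595 and chr11:82765597-82765656 of mm9) and are annotated to an Ensembl transcript, without a RefSeq gene. On the build GRCm38.p6, the bases of probe 3 match the stretch from 68 to 9 bases before the RefSeq start of Slfn5. Probe 5 read -4.19, -3.82 and -4.02 in Ctrl, -2.29, -2.53 and -2.41 at 1 dpi, and -3.15, -3.12 and -3.09 at 3 dpi. It followed probes 2 and 4 in its order, being 3.04-fold higher than Ctrl at 1 dpi (log2 fold change 1.60 ± 0.11 SE, limma adjusted p = 2.05e-05) with a difference of -0.71 between 3 and 1 dpi. Probe 3 read -0.20, 0.33 and 0.31 in Ctrl, 0.96, 0.83 and 0.80 at 1 dpi, and 0.58, 0.17 and -0.03 at 3 dpi. Its 1 dpi arrays lay above all others, while its Ctrl and 3 dpi arrays overlapped (difference 0.10, adjusted p = 0.726). That difference turned to -0.08 without Ctrl replicate 1 or without 3 dpi replicate 1, and to -0.06 with the array median. At 1 dpi, 4 of the 5 probes were called higher, the exception being probe 3 (0.72 ± 0.19, adjusted p = 0.0138), and at 3 dpi probes 1, 2 and 4 were called higher, of which probe 4 did not reach 2-fold with normexp.

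The 5 probes therefore differed on the step from 1 to 3 dpi, where probe 1 gave 0.11 and the others -0.90, -0.62, -1.78 and -0.71. These bases are shown because this step depends on the probe chosen. Each line holds bases 1 to 30 of a probe of 60 bases, as the array files give them.
Slfn5 probe 1: tatcaacctgtatcctggtaaacatttcat
Slfn5 probe 2: tcacacattctaatgggtggatcggaacct
Slfn5 probe 4: cttttcactagagccagagatatagaaaaa
The probes share a gene and RNA, so they are not replicates of each other. The log2 table that the authors deposited follows probe 4 for Slfn5, and there the difference from 1 to 3 dpi was -1.72 (deposited values).

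**Figure D1:**
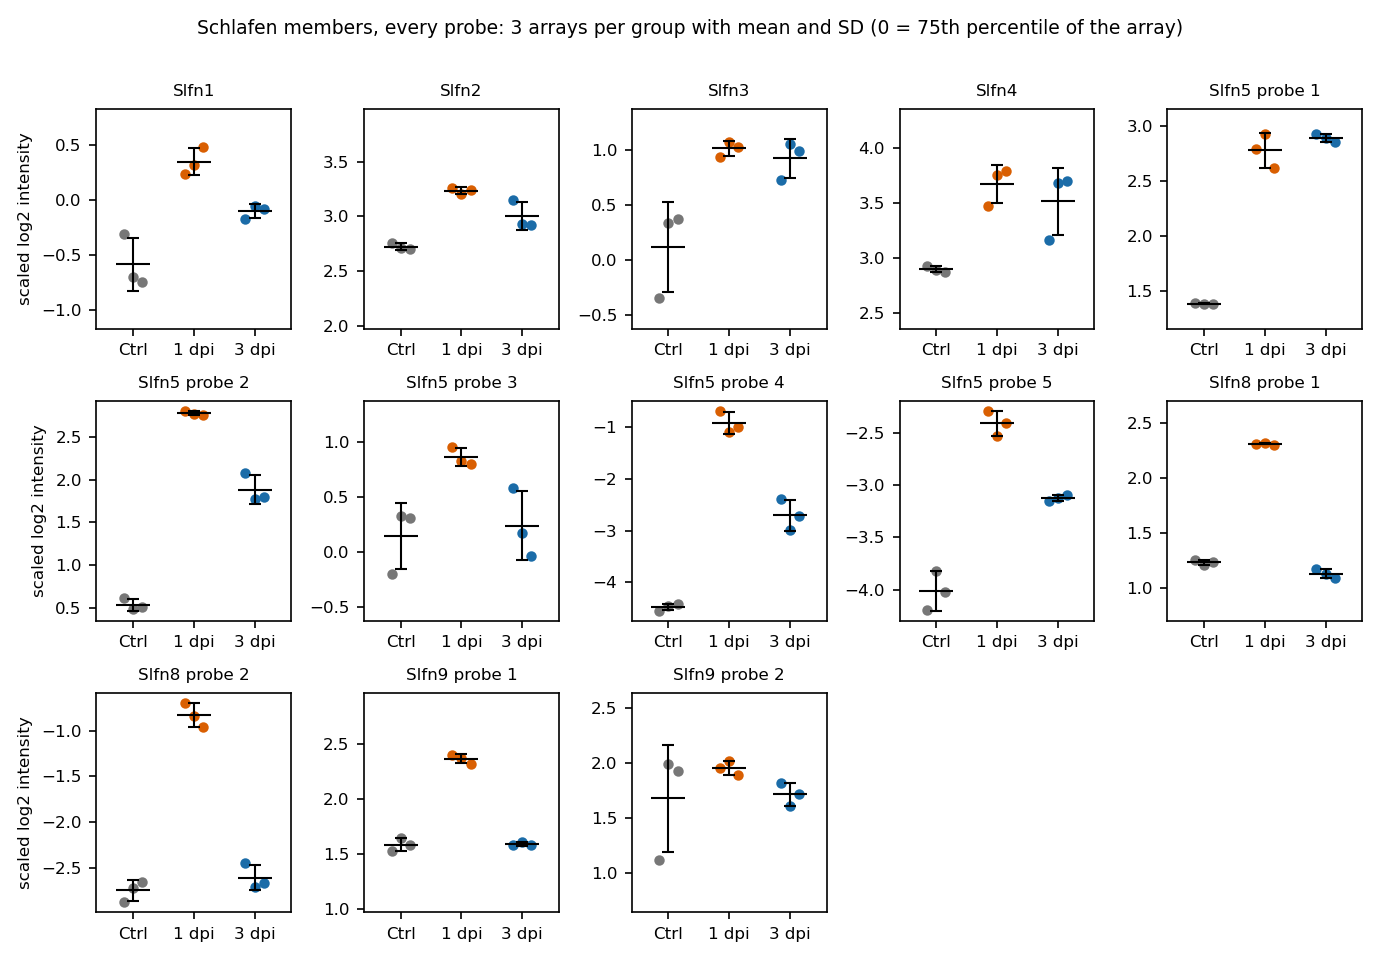
Scaled log2 level of each of the 13 Schlafen probes on every array (points), with the mean (long bar) and SD (whiskers) of the 3 arrays in Ctrl, 1 dpi and 3 dpi. The panels for Slfn5 show probe 1 as high at 3 dpi as at 1 dpi and probes 2, 4 and 5 in between, and both Slfn8 panels show the 1 dpi arrays alone on top.

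Slfn8 is another long member. Its brightest probe, probe 1 (chr11:82815804-82815863 of mm9, minus strand), read 1.25, 1.21 and 1.24 in Ctrl, 2.32, 2.32 and 2.31 at 1 dpi, and 1.18, 1.13 and 1.09 at 3 dpi. The 1 dpi arrays stood far above the rest, and the 3 dpi arrays lay just below Ctrl without overlap. The mean level was 1.24 ± 0.02 (SD, n = 3) in Ctrl, 2.31 ± 0.01 at 1 dpi and 1.13 ± 0.04 at 3 dpi. Slfn8 rose 2.11-fold at 1 dpi (log2 fold change 1.08 ± 0.05 SE, limma adjusted p = 4.48e-06). By 3 dpi it fell by 1.18 (SE 0.05, adjusted p = 9.4e-06), which is 2.27-fold. The difference between 3 dpi and Ctrl was -0.10 (95% confidence interval -0.22 to 0.02, adjusted p = 0.184).

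Probe 2 of Slfn8 (chr11:82830985-82831044 of mm9), which lies near the start of the transcript, also had its highest arrays at 1 dpi. It read -2.88, -2.72 and -2.65 in Ctrl, -0.69, -0.84 and -0.96 at 1 dpi, and -2.45, -2.71 and -2.67 at 3 dpi. The rise at 1 dpi was 3.78-fold on this probe (log2 fold change 1.92 ± 0.11 SE, limma adjusted p = 8.42e-06), and from 1 to 3 dpi it fell by 1.78 (SE 0.11, adjusted p = 2.86e-05). Both probes of Slfn8 were thus called in the same comparisons, though the change was larger on the dimmer probe. At 3 dpi probe 2 differed from Ctrl by 0.14 with overlapping arrays (limma adjusted p = 0.349), against -0.10 on probe 1. On probe 1 the 2-fold call of Slfn8 at 1 dpi was lost after scaling to the array median (0.75) and with normexp (0.99), and the adjusted p stayed under 0.05 in both (0.00133 and 5.7e-07). On probe 2 the differences under these settings were 1.60 and 1.58.

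Slfn9, the remaining long member, had a pair of probes that did not give the same result. Probe 1 (chr11:82794408-82794467 of mm9, minus strand) read 1.53, 1.64 and 1.58 in Ctrl, 2.40, 2.38 and 2.32 at 1 dpi, and 1.58, 1.61 and 1.58 at 3 dpi. Its 1 dpi arrays did not overlap with the others, and its 3 dpi arrays lay within the range of Ctrl. This probe stood for the gene, and its difference of 0.78 at 1 dpi (SE 0.06, limma adjusted p = 3.2e-05, 1.72-fold) and of -0.78 from 1 to 3 dpi (adjusted p = 6.37e-05) stayed below 2-fold. Its mean level exceeded that of probe 2 only at 1 dpi (2.368 against 1.959). It was lower in Ctrl (1.585 against 1.682) and at 3 dpi (1.592 against 1.718). The choice of probe 1 thus rests on the group where it is high, and its tests against 1 dpi are not independent of that choice. With the array median its 1 dpi difference was 0.46. The accessions listed for probe 1 belong to 3 genes, Slfn8, Slfn9 and the pseudogene Slfn10-ps, so that its signal cannot be given to Slfn9 alone.

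Probe 2 (chr11:82793812-82793871 of mm9) lists Slfn9 alone. It read 1.12, 1.99 and 1.93 in Ctrl, 1.96, 2.02 and 1.90 at 1 dpi, and 1.82, 1.61 and 1.72 at 3 dpi. Ctrl replicate 1 lay far below the other Ctrl arrays, and the Ctrl and 1 dpi arrays overlapped. The difference at 1 dpi was 0.28 (SE 0.21, limma adjusted p = 0.294), and -0.00 without Ctrl replicate 1. At 3 dpi it was 0.04 (SE 0.21, adjusted p = 0.909), and -0.24 without that array. The first 30 bases of both probes of Slfn9 are shown, since the change at 1 dpi was seen on probe 1 alone.
Slfn9 probe 1: gacataggctatgggaacgttgagaccata
Slfn9 probe 2: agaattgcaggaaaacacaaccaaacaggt

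The long members also share letters upstream of their start. A core of the IFN-stimulated response element (ISRE), searched as GAAANNGAAA on both strands in the 250 bases before the RefSeq start (GRCm38.p6), was found in Slfn5, Slfn8 and Slfn9 and in 3 of the 7 members in all. Of 32851 windows of that length over all genes, 978 (2.98%) held it, and 14 of the 29 IFN-stimulated genes with a window did (48.3%). Members and IFN-stimulated genes were counted by gene, if any window of the gene matched, while the share over all genes is by window. A gamma-activated sequence, searched as TTCNNNGAA, was in 0 of the 7 members, in 7.02% of all windows and in 7 of the 29 IFN-stimulated genes. The windows of Slfn5 and Slfn8 are shown since these were the called members, and that of Slfn9 since it also held the ISRE core. The core is in capitals, and each sequence is written 5′ to 3′ on the strand of its gene.
Slfn5, chr11:82951852-82952101, plus strand: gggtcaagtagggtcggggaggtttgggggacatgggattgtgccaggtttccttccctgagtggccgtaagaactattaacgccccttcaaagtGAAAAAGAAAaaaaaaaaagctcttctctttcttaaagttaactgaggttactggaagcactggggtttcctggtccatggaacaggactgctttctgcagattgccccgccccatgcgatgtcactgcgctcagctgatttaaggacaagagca
Slfn8, chr11:83020811-83021060, minus strand: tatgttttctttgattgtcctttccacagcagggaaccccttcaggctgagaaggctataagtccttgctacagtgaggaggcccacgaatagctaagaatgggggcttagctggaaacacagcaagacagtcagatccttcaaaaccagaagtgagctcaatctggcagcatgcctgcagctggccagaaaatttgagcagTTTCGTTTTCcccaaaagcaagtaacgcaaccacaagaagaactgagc
Slfn9, chr11:82991831-82992080, minus strand: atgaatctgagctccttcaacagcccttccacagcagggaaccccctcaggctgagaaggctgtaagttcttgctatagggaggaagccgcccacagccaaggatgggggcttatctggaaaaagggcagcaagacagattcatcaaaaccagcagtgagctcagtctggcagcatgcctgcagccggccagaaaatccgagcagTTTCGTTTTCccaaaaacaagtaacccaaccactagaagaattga
The core lies 155 to 146 bases before the start in Slfn5, 48 to 39 bases in Slfn8 and 45 to 36 bases in Slfn9, in the last 2 on the opposite strand. From another RefSeq start of Slfn8 the same core lies 136 to 127 bases upstream. The windows of Slfn8 and Slfn9 had 80.2% of 262 aligned columns in common, while all other pairs of members had between 45.5% and 53.4%. A match of letters is a description and shows no binding.

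In the short group, Slfn1 is known for slowing T cell growth when overexpressed, and Slfn2 for keeping T cells quiescent. Slfn1 (chr11:82935656-82935715 of mm9) read -0.31, -0.70 and -0.74 in Ctrl, 0.24, 0.32 and 0.49 at 1 dpi, and -0.17, -0.05 and -0.08 at 3 dpi. Its 3 groups did not overlap, with 1 dpi highest and 3 dpi in between. Its differences were 0.93 at 1 dpi (SE 0.13, limma adjusted p = 0.000626, 1.91-fold), 0.48 at 3 dpi (adjusted p = 0.0218) and -0.45 between 3 and 1 dpi (adjusted p = 0.022), all below 2-fold. The 1 dpi difference passed 2-fold without Ctrl replicate 1 and with slide as a fixed block (1.07 in both), and Slfn1 was then a called member. The fixed slide block sets that same array aside, so these are not separate checks.

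Slfn2 (chr11:82883791-82883850 of mm9) read 2.76, 2.72 and 2.70 in Ctrl, 3.26, 3.20 and 3.24 at 1 dpi, and 3.15, 2.94 and 2.93 at 3 dpi. The order of its groups was that of Slfn1, again without overlap. Among the probes that stand for a member its difference was the smallest at 1 dpi, with 0.51 (SE 0.07, limma adjusted p = 0.000926, 1.42-fold), then 0.28 at 3 dpi (adjusted p = 0.0242) and -0.23 between 3 and 1 dpi (adjusted p = 0.0378). Relative to all genes the 1 dpi difference of Slfn2 was 0.28. With normexp, 6 of the 7 members lay above the median of all genes at 1 dpi.

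The intermediate members were similar on both days. Slfn3 (chr11:83028431-83028490 of mm9) read -0.35, 0.34 and 0.37 in Ctrl, 0.94, 1.07 and 1.03 at 1 dpi, and 0.72, 1.05 and 0.99 at 3 dpi. Slfn4 (chr11:83002974-83003033 of mm9), known from monocytes and macrophages, read 2.93, 2.89 and 2.88 in Ctrl, 3.48, 3.76 and 3.79 at 1 dpi, and 3.17, 3.68 and 3.70 at 3 dpi. For both genes all arrays after IR lay above Ctrl, and the 1 dpi and 3 dpi arrays overlapped. Slfn3 differed from Ctrl by 0.90 at 1 dpi (SE 0.19, limma adjusted p = 0.00603, 1.86-fold) and by 0.80 at 3 dpi (adjusted p = 0.0156). Slfn4 differed by 0.78 at 1 dpi (SE 0.15, adjusted p = 0.004, 1.71-fold) and by 0.62 at 3 dpi (adjusted p = 0.018). With the array median the 1 dpi differences were 0.57 for Slfn3 and 0.45 for Slfn4. The step from 1 to 3 dpi passed for neither (-0.09 with adjusted p = 0.733 for Slfn3, -0.16 with adjusted p = 0.439 for Slfn4), and both signs turned without 3 dpi replicate 1 (0.01 and 0.02) and with the array median (0.08 and 0.02). Ctrl replicate 1 was the low Ctrl array of Slfn3, which differed by 0.66 at 1 dpi without it, and by 1.00 or 1.02, past 2-fold, without Ctrl replicate 2 or 3.

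The values before scaling show what the scaling does at 1 dpi. The mean intensity of Slfn8 probe 1 was 2342 in Ctrl, 2405 at 1 dpi and 2208 at 3 dpi, while that of Slfn2 was 6573, 4551 and 8067 and that of Slfn5 probe 1 was 2597, 3329 and 7456. Without any scaling, 6 of the 13 probes were higher at 1 dpi than in Ctrl (4 of Slfn5 and both of Slfn8) and 7 were lower, with log2 differences from -0.74 to 2.55. With the 75th percentile, quantile normalization and normexp all 13 probes lay above 0 at 1 dpi, and with the array median 12 did. From 1 to 3 dpi, 12 probes lay below 0 after the main scaling and 3 without any, namely Slfn5 probe 4 (-0.73) and both probes of Slfn8 (-0.12 and -0.72).

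**Figure D2:**
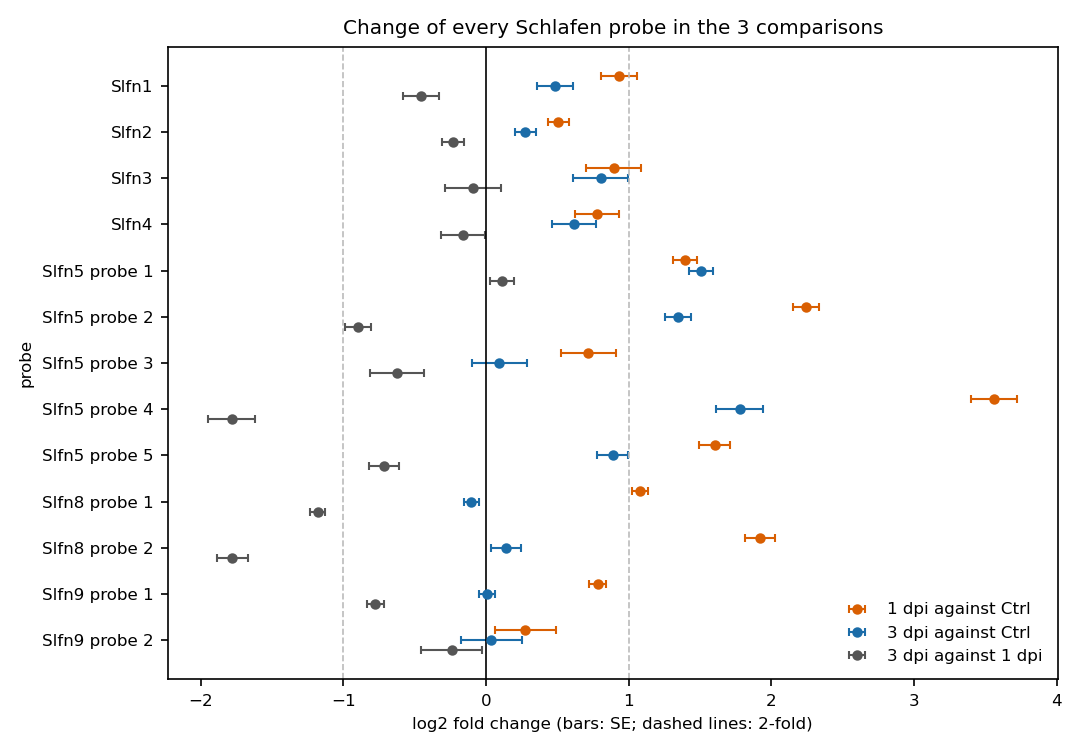
Log2 fold change of each Schlafen probe (points, with bars of 1 SE from limma over all probes) at 1 dpi against Ctrl, at 3 dpi against Ctrl and at 3 dpi against 1 dpi, with 2-fold marked by dashed lines. All 1 dpi points lie above 0, from 0.28 to 3.56, but 7 of the 13 were below 0 before scaling and that of Slfn9 probe 2 after scaling to the array median. Of the 3 dpi against 1 dpi points, 12 lie below 0, Slfn5 probe 1 (0.11) being the exception.

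Of the relatives outside the members, Slfn10-ps is a pseudogene of the same cluster, and Slfn14 is known as a ribosome-associated endonuclease. On its brighter probe Slfn10-ps differed by 0.76 at 1 dpi (SE 0.07, limma adjusted p = 7.19e-05), -0.08 at 3 dpi and -0.84 between both days, with all 1 dpi arrays above the others. On its dimmer probe the differences were 0.03 at 1 dpi (adjusted p = 0.848), -0.54 at 3 dpi (adjusted p = 0.0129) and -0.57 between both days (adjusted p = 0.00776), so that its probes differed. Slfn14 was well above background on 2 of 3 Ctrl arrays, 0 of 3 at 1 dpi and 3 of 3 at 3 dpi. Its fitted log2 difference at 1 dpi was -0.69 (SE 0.23, limma adjusted p = 0.0339), which rests on 1 dpi values not well above background. It is therefore given as at least 1.13-fold lower than in Ctrl, which that p does not test. This bound sets the brighter group against the lowest signal still well above background on the dimmer arrays. Slfnl1 was well above background on 0 of the 9 arrays.

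Among genes well above background on all arrays, the level of each member was set against all others over the 9 arrays. The arrays share 3 groups, so these Pearson correlations describe the pattern over the groups and carry no test. For Slfn8 the most similar genes were Irf1, a transcription factor of the IFN pathway (r = 0.998), and with nearly the same value Gm17455 and Gm34786 (both 0.997). For Slfn9 they were Nlrc5, a regulator of MHC class I genes (r = 0.999), and Bpifc and an unnamed Ensembl transcript (both 0.996). The values for Slfn9 rest on its probe 1, whose signal cannot be given to Slfn9 alone. For Slfn5, read from its probe 1 alone, the most similar genes were 4930564I24Rik (0.999), the chemokine Xcl1 (0.995) and the bacterial lipoprotein receptor Tlr2 (0.995). The other probes of Slfn5 had another time course, so this likeness holds for probe 1 only. For Slfn1 the most similar gene was Atp6v0c (0.996), for Slfn2 Eif6 (0.997), for Slfn3 an unnamed Ensembl transcript (0.994) and for Slfn4 the heme oxygenase gene Hmox1 (0.983). Among the members, Slfn8 and Slfn9 were closest (r = 0.990), and Slfn5 and Slfn8 were least alike (r = 0.369). The probe that stands for Slfn9 also lists Slfn8, so the first value may compare the same RNA, and the second rests on probe 1 of Slfn5, whose time course its other probes did not share.

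The IFN pathway was read from 3 lists of known members. Of 14 ligand and receptor genes, 11 were tested and 2 were called higher at 1 dpi, 0 lower, with a median log2 fold change of 0.58. The median was 0.17 without Ctrl replicate 1 and likewise with slide as a fixed block, which sets the same array aside. Calls at 1 dpi were 4 higher without Ctrl replicate 3, 3 higher in the deposited table, 1 higher and 1 lower with the array median, and 0 with normexp and quantile normalization together. Ifnb1, which encodes IFN-β, was well above background on 0 of 3 Ctrl arrays and 3 of 3 at 1 dpi, so its log2 rise of 2.92 (SE 0.17, limma adjusted p = 1.2e-05) is given as at least 2.88. Ifng, which encodes IFN-γ, rose 2.43-fold at 1 dpi (adjusted p = 2.79e-05) and was 4.64-fold above Ctrl at 3 dpi (adjusted p = 1.71e-06), the 1 call of this list at 3 dpi. By 3 dpi Ifnb1 fell by 2.15, the 1 call of the list there, which was lost with normexp and quantile normalization together. In that comparison the list had 1 call higher and 1 lower with the array median, and 2 lower without the filter on dim probes.

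Of the 14 signalling genes, the 1 dpi calls were 5 higher and 0 lower, with a median of 0.28 (0.05 above that of all genes). The relative median depended on the processing, with 0.27 after quantile normalization, 0.55 in the deposited table and -0.22 with normexp. With the array median 3 were called higher. The calls were led by the transcription factor Irf7 (4.34-fold) and the feedback inhibitor Usp18 (4.18-fold), followed by Irf1 (2.75-fold). At 3 dpi 1 was called higher (Irf7, 2.39-fold) and 0 lower, with a median of 0.12, and between 3 and 1 dpi 0 were called higher and 3 lower, with a median of -0.29. That last median was -0.11 with the array median and -0.55 in the deposited table, and relative to all genes it turned from -0.20 to 0.12 with normexp. The signalling median at 1 dpi was -0.05 after scaling to the array median, which turns its direction, and that at 3 dpi also fell below 0 there.

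Of 40 IFN-stimulated genes 39 were tested. At 1 dpi the calls were 28 higher and 0 lower, with a median of 1.34, or 1.11 relative to all genes. The antiviral genes Ifit3 (13.9-fold), Ifit1 (8.23-fold) and Rsad2 (7.80-fold) and the chemokine Cxcl10 (9.03-fold) changed most. At 3 dpi 10 were called higher and 0 lower, with a median of 0.66, or 0.54 relative to all genes, led by Iigp1 (4.88-fold), Ifit3 (4.55-fold), Ifi204 (3.62-fold) and Mx1 (3.41-fold). By 3 dpi 14 were called lower than at 1 dpi and 0 higher, with a median of -0.84. The members' median was 0.90, 0.48 and -0.23 in the same comparisons. Relative to all genes with normexp, the medians from 1 to 3 dpi were 0.18 for the members and -0.43 for the IFN-stimulated genes. With slide as a fixed block, the calls at 1 dpi were 27 of the IFN-stimulated list (median 1.38), and the members' median was 0.79. With the array median the calls were 21 at 1 dpi (median 1.01) and 7 at 3 dpi, and 11 were called lower from 1 to 3 dpi.

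**Figure D3:**
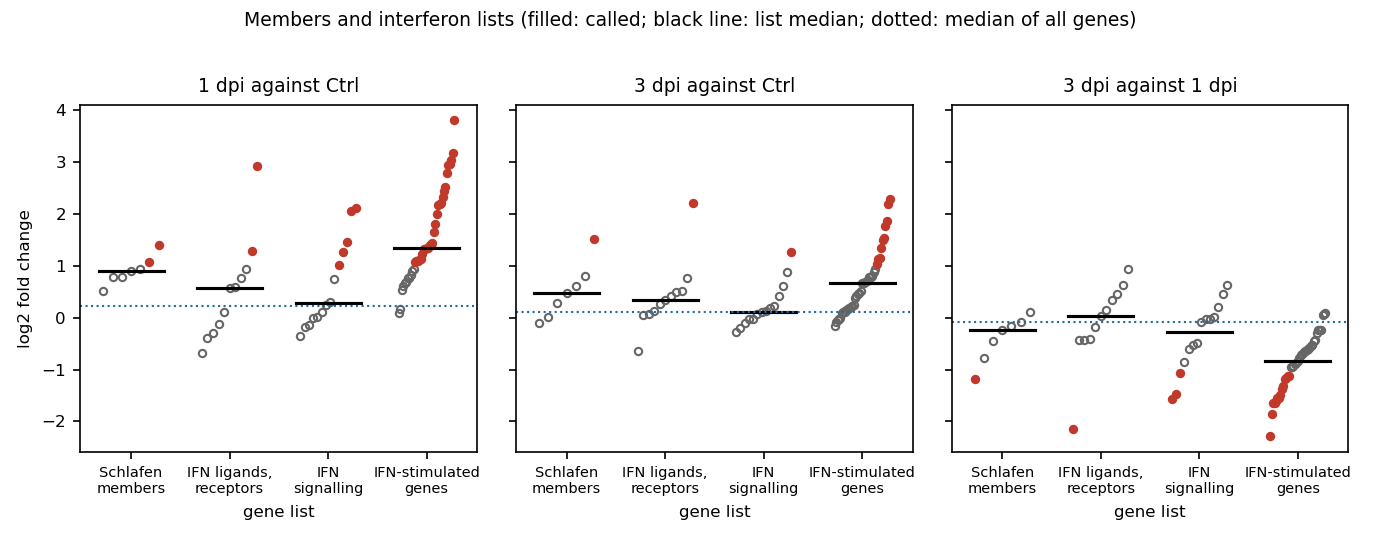
Log2 fold change of each tested gene (points, filled where called) among the Schlafen members, IFN ligands and receptors, IFN signalling genes and IFN-stimulated genes in the 3 comparisons, with the median of the list (black line) and of all genes (dotted line). At 1 dpi the median of the members (0.90) lies between those of the signalling genes (0.28), which turned to -0.05 after scaling to the array median, and the IFN-stimulated genes (1.34).

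The 13 probes span 263 kb on chromosome 11 (82765536 to 83028490 of mm9). Within 500 kb of a probe, 34 other genes were tested. At 1 dpi the calls were 7 higher (11.7% among all genes) and 0 lower, among them the chemokines Ccl9 (1.11), Ccl3 (1.03) and Ccl4 (1.17), as well as Unc45b (1.00), Unc45bos (1.36), Wfdc17 (2.21) and Wfdc18 (1.09), all as log2 fold changes. With the array median, which moves all genes at 1 dpi down alike, Slfn8 came from 1.08 to 0.75. Ccl9, Ccl3, Ccl4, Unc45b and Wfdc18 fall below 2-fold there, and 1888 genes in all were called higher instead of 3453. At 3 dpi 4 were called higher (7.04% among all genes) and 0 lower, namely the chemokine Ccl5 (1.37), Unc45b (1.55), Wfdc17 (2.75) and Wfdc18 (1.35). On the step from 1 to 3 dpi 1 gene, 1190001M18Rik, was called higher (4.17% among all genes), with 0 of 3 arrays well above background at 1 dpi and a bound of at least 1.02-fold, and 0 were called lower.

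The arrays hold RNA of a cell preparation, in which more cells that express a gene and more RNA per cell cannot be told apart. All 18 megakaryocyte markers were well above background on every array, with Pf4 the most intense, and 0 of 18 were called by limma in any comparison (unadjusted p under 0.05 for 11, 9 and 11 of them in the 3 comparisons). With the array median 2 were called lower at 1 dpi and 2 higher from 1 to 3 dpi, while 1 was called higher at 3 dpi without Ctrl replicate 1, and 1 from 1 to 3 dpi without 1 dpi replicate 1 or 2 or 3 dpi replicate 3. Their summed level, in multiples of the 75th percentile, was 273, 242 and 240 in Ctrl, 241, 226 and 222 at 1 dpi, and 264, 259 and 256 at 3 dpi. Markers of other cells were also well above background, and several moved with the groups. Whether they have a part in the changes of the Schlafen members was not tested.

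Of 12 monocyte and macrophage markers, the calls were 4 higher at 1 dpi, 9 higher at 3 dpi and 6 higher from 1 to 3 dpi, with 0 lower. Their sum, in which Lyz2 was the most intense, was 474, 488 and 479 in Ctrl, 808, 754 and 752 at 1 dpi, and 645, 587 and 628 at 3 dpi. Of 12 neutrophil markers 1 was called higher at 1 dpi and 0 otherwise, and their sum, led by Mpo, was 1927, 1994 and 1991 in Ctrl, 3187, 3002 and 2972 at 1 dpi, and 2103, 1888 and 1991 at 3 dpi. The monocyte and macrophage sum was highest at 1 dpi, while the median marker of that list lay 0.88 higher at 3 dpi than at 1 dpi. Neutrophil calls at 1 dpi ranged from 0 (array median or quantile normalization) to 2 (without Ctrl replicate 2, or 1 dpi replicate 2 or 3). Of 15 tested T and NK cell markers, the 1 dpi calls were 3 higher and 1 lower, with 6 higher at 3 dpi and 4 higher between both days, but 0 higher at 1 dpi with the array median. Their sum, led by Nkg7, was 49.6, 51.7 and 49.6 in Ctrl, 68.8, 64.5 and 64.8 at 1 dpi, and 64.5, 58.4 and 57.0 at 3 dpi.

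Of 12 B cell markers, 10 were called lower at 1 dpi and 9 at 3 dpi, while 4 were called higher between 3 and 1 dpi. Their sum, led by Cd79b, was 50.4, 48.4 and 49.2 in Ctrl, 13.1, 12.9 and 13.1 at 1 dpi, and 15.6, 14.6 and 14.8 at 3 dpi. The B cell sum was thus highest in Ctrl. Of 10 erythroid markers, the 1 dpi calls were 2 higher and 7 lower, with 8 lower at 3 dpi, and 5 higher and 3 lower between both days. The higher calls at 1 dpi, Hba-a1 (1.32) and Hbb-b1 (1.06), fall below 2-fold with the array median, which moves all genes down alike. Their sum, most of it Hba-a1, was 155, 126 and 131 in Ctrl, 344, 283 and 279 at 1 dpi, and 51.1, 51.5 and 47.8 at 3 dpi. The high sum at 1 dpi went with a higher level of Hba-a1 and lower levels of most other erythroid markers.

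Of 10 dendritic cell markers 9 were tested, and the 1 dpi calls were 1 higher and 3 lower, with 2 lower at 3 dpi and 1 higher between both days. The higher call at 1 dpi was Siglech, and 0 were called higher without Ctrl replicate 1, on which Siglech read 18.1, against 39.3 and 40.6 on the other Ctrl arrays. With quantile normalization or the array median, 6 were called lower at 1 dpi. Their sum, led by Siglech, was 76.1, 93.1 and 92.9 in Ctrl, 99.3, 93.9 and 92.7 at 1 dpi, and 80.8, 73.9 and 71.4 at 3 dpi, and Xcr1 was well above background on 0 of the 9 arrays. Of 10 stromal markers, the calls were 7 higher at 1 dpi, 6 higher at 3 dpi and 4 higher from 1 to 3 dpi. Their sum, led by Cxcl12, was 14.7, 14.0 and 14.8 in Ctrl, 71.1, 61.6 and 67.2 at 1 dpi, and 133, 121 and 130 at 3 dpi. The stromal sum was thus lowest in Ctrl and highest at 3 dpi. Of 8 endothelial markers, 3 were called higher at 1 dpi, 5 at 3 dpi and 1 between both days (3 there with the array median, quantile normalization or without 1 dpi replicate 3), and their sum, led by Stab2, was 4.37, 3.98 and 4.04 in Ctrl, 6.98, 6.56 and 6.68 at 1 dpi, and 13.0, 10.9 and 11.3 at 3 dpi. With the array median the 1 dpi differences of Kdr (1.21) and Flt4 (1.19) fall below 2-fold.

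The table of log2 values that the authors deposited holds all 7 members, with 1 row each. To compare them with the probes, each row and each probe was centred on its mean over the arrays, which leaves only differences between arrays. For each member the row then matched the quantile-normalized log2 intensity of a probe within 0.002 on all arrays. For Slfn5 and Slfn8 that was a dimmer probe (probe 4 and probe 2), and for the other members the probe that stands for the gene. In these deposited values Slfn5 differed by 3.29 at 1 dpi and 1.58 at 3 dpi, Slfn8 by 1.77 and 0.05, and Slfn9 by 0.83 and -0.00. The larger size for Slfn5 and Slfn8 thus goes with the choice of probe. The column medians were 5.84, 5.84 and 5.84 for Ctrl, 5.80, 5.80 and 5.79 for 1 dpi, and 5.86, 5.86 and 5.87 for 3 dpi, on a log2 scale that was not centred per gene. Why these probes were taken is unknown.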

How the data were processed

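RNA of mMKs was measured on 9 Agilent 1-colour arrays of 60-base probes, 3 per group by the sample labels. The methods describe a chip of another maker, so its steps were not followed. Scanner output of Agilent Feature Extraction 10.7.1.1 was deposited, with background-subtracted intensity per spot that the authors did not scale between arrays. A further deposited file of the authors gives log2 values by gene name and served as an alternative only. How that file was made is not given in the sources used here. An array holds 62976 spots (3671 of them controls, the other 59305 for 56605 probes), and 0 were saturated.

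Controls and outlier spots were dropped (20 probes had no others), and repeated spots were averaged. RefSeq accessions of the array files named 32994 probes through a gene table of GRCm38.p6, and 23611 kept the name of the array files. Each array's log2 intensities were scaled by subtracting its 75th percentile. A probe was kept when all 3 arrays of any group had it well above background (44301 probes), and the brightest stood for its gene (29411 genes). The model was that of limma 3.58.1 (R 4.3.3), with 1 mean per group and no block, and p-values were adjusted by Benjamini-Hochberg. The agreement of probes was read from the same fit over all probes. Other tools were data.table (1.17.8), Python (3.11.15) and matplotlib (3.10.9). The steps were first tried on made-up data with known changes.

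Named genes were all members and relatives, the 4 called genes of each IFN list with the largest change against Ctrl (1 of them is not reported here), the genes most similar to each member over the arrays, called genes beside the cluster, and the most intense gene of each marker list. Alternatives were other scalings, normexp (offset 50), the deposited table, other filters and probe rules, other models with the methods' t-test among them, slide or replicate number as a block, and each array left out. Unscaled values, every probe under the scalings and without each array, and the marker lists under all alternatives were added after the data were seen. The members and lists were chosen with earlier results of these data known. Promoter windows are those of RefSeq on GRCm38.p6, which matched all 7 members, and array coordinates are those of mm9.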

Additional observations from a re-analysis of the deposited data

Results flagged for a closer look

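The change after IR of 16 named genes differed between the time points. The limma test of 3 dpi against 1 dpi itself gave an adjusted p under 0.05 and a fitted change of at least 2-fold. Slfn8 was lower at 3 dpi (log2 fold change -1.18 ± 0.05 SE, adjusted p = 9.4e-06), with all 3 arrays below those of 1 dpi. The same held for the IFN genes Rsad2 (-2.28), Ifnb1 (-2.15, not called with normexp and quantile normalization together), Cxcl10 (-1.64), Ifit3 (-1.62), Irf1 (-1.57), Ifit1 (-1.55), Usp18 (-1.46) and Mx1 (-1.17). It also held for genes among the most similar to probe 1 of Slfn8 or Slfn9 over the arrays, Gm34786 (-1.81), Gm17455 (-1.68) and Nlrc5 (-1.13). These were picked by that likeness. LOC102642448 (-1.46), chosen after its values were seen, was lower at 3 dpi as well. With the array median, which moves all genes alike, Slfn8 came to -1.006. The smaller differences of Mx1 and Nlrc5 fall below 2-fold there. The erythroid gene Hba-a1 was also lower (-2.79, adjusted p = 8.82e-06). The endothelial gene Stab2 was higher at 3 dpi (1.56, adjusted p = 4e-05), as was 1190001M18Rik beside the cluster (fitted value 1.57, adjusted p = 0.0138). As 1190001M18Rik was not well above background on any 1 dpi array, its fold is given as a bound of at least 1.02-fold. A 2-fold change is thus not shown for it. The cause of these differences was not tested.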

How the results depend on the processing

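Of 546 values of single members under the alternatives, 526 stayed on their side of the threshold, 17 passed it newly, 2 lost it and 1 turned. Among the 526, 14 values that were not called changed sign. The 2 losses were Slfn8 at 1 dpi with the array median (0.75) and normexp (0.99). The turned value was Slfn5 between 3 and 1 dpi in the deposited table (-1.72), which holds another probe. The new calls came from dropping the 2-fold minimum (12 values below), from Slfn1 at 1 dpi with slide as a fixed or random block (1.07 and 1.03) or without Ctrl replicate 1 (1.07), and from Slfn3 without Ctrl replicate 2 or 3 (1.00 and 1.02). The fixed slide block sets Ctrl replicate 1 aside, so its call of Slfn1 repeats the call without that array. Calls of all genes at 1 dpi (4360) were 2444 with normexp, 1667 with normexp and quantile normalization and 16275 by adjusted p alone. At 3 dpi (2596) they were 1294, 1147 and 9393, and between 3 and 1 dpi (2544) 1350, 1088 and 13015. By adjusted p alone 7, 5 and 4 members were called (2, 1 and 1 before), while at 1 dpi 1 was with the array median or normexp and between 3 and 1 dpi 2 were in the deposited table. In the counts by adjusted p alone, Slfn9 was included at 1 dpi and between 3 and 1 dpi through probe 1 only. The members' median at 1 dpi (0.90) was 0.92 with quantile normalization, 0.57 with the array median, 0.81 with normexp, 0.86 with normexp and quantile normalization, 0.92 in the table, 0.79 with slide fixed or random, and 0.79 to 0.93 with an array left out. At 3 dpi (0.48) it was 0.33 with the array median, 0.43 with normexp, 0.41 with normexp and quantile normalization, 0.57 and 0.58 with slide fixed and random, and 0.40 to 0.57 with an array left out. Between 3 and 1 dpi (-0.23) it was -0.30 with quantile normalization, -0.057 with the array median, -0.15 with normexp, -0.29 with normexp and quantile normalization, -0.47 in the table, -0.45 with the mean of all probes, and -0.30 to -0.23 with an array left out. Where an alternative changes only the scaling or the probe, that change is its construction, and otherwise the cause was not tested.

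Among the calls at 1 dpi, 79.2% were higher than Ctrl, against 56.3% with quantile normalization, 45.1% with the array median, 68.7% with normexp and quantile normalization and 49.7% in the table. Between 3 and 1 dpi it was 48.2%, against 62.9%, 68.2%, 33.2% with normexp and 62.6% in the table, and at 3 dpi 79.8%, against 66.7% in the table. With 2-fold, the methods' t-test called 3866, 2557 and 2666 genes unadjusted and 3303, 2210 and 2466 after Benjamini-Hochberg. With the replicate block 4186, 2505 and 2456 genes and 2, 1 and 1 members were called. Of 9 pairs of arrays with the same number, 1 had a correlation of deviations over 0.1 (range -0.11 to 0.13), and 4 of 9 arrays were closest to their own number, so the numbers were not taken to pair the arrays. Dim probes (Slfn5 probes 4 and 5, Slfn8 probe 2) rest on intensities nearest the background.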

Other observations

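The probe of LOC102642448, annotated as a predicted schlafen gene without a place on the genome and chosen after its values were seen, read -2.83, -2.99 and -2.94 in Ctrl, -1.26, -1.15 and -1.48 at 1 dpi, and -2.40, -2.91 and -2.95 at 3 dpi. The 1 dpi arrays lay above all others. It was called higher at 1 dpi (log2 fold change 1.63 ± 0.16 SE, limma adjusted p = 0.000125) and lower from 1 to 3 dpi (-1.46, adjusted p = 0.000316), and 1 dpi was also highest on both probes of Slfn8.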
